A study of Mus musculus with 9 samples.

Results

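The genes described here are 34 candidates for type 1 diabetes, named from human association studies or from the mouse Idd (insulin-dependent diabetes) loci, out of 21631 protein-coding genes. Membership was set by gene name and not by a measured value, but the list was chosen with earlier results of these data known. They were followed in HiChIP of sorted CD4+ CD8+ thymocytes. HiChIP is chromatin conformation capture followed by immunoprecipitation, so that each read pair reports 2 DNA segments held together near the precipitated protein. For every gene the paired-end tags (PETs, the read pairs the authors counted for a listed interaction) were summed over interactions whose anchor midpoints lay at least 10 kb apart and of which either anchor overlapped the gene body extended by 5 kb on each side. Sums are given as CPM, PETs per 1000000 PETs of the library.

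Thymocytes came from 2 inbred strains, C57BL/6J (below BL6) and NOD/ShiLtJ (below NOD). An F1 of NOD/ShiLtJ and C57BL/6 was added. NOD mice develop autoimmune diabetes spontaneously, and C57BL/6J mice do not. The antibody recognised Smc1, a subunit of the cohesin ring that holds chromatin loops, or H3K27ac, an acetylation mark of active promoters and enhancers. Each strain had 2 Smc1 libraries, which the titles call technical replicates of 1 biological replicate, and 2 H3K27ac libraries, which they number as separate biological replicates. The spread behind Smc1 p-values may thus be technical only. For 4 samples the title says Smc1 but the antibody field H3K27ac; these were taken as H3K27ac, as the field gives it. The F1 Smc1 library was deposited as 2 tables, mapped to the genome of either parent. NOD tables hold coordinates shifted to the BL6 reference. The labels state neither the age nor the sex of the mice.

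Type 1 diabetes is the loss of insulin-producing beta cells to an autoimmune attack in which T cells are central. T cells pass through the CD4+ CD8+ stage in the thymus, where the T cell receptor is tested and self-reactive clones are removed. Most candidate genes act in antigen receptor signalling, in cytokine signalling or as brakes on either, and many association signals lie outside coding sequence, where contacts between promoters and distal DNA are of interest.

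The used interactions held between 381010 PETs (NOD H3K27ac library 1) and 2620662 PETs (BL6 Smc1 library 2) per table, and 59.6 to 73.5% of them rested on 2 PETs each, the fewest that the tables list. Of these PETs the 34 genes took 0.296 to 0.539%. Depth at single genes was low: the median member held 81 and 115 PETs in the BL6 Smc1 libraries, 89 and 49.5 in the NOD Smc1 libraries, 19 and 88.5 in the BL6 H3K27ac libraries and 16 and 39.5 in the NOD H3K27ac libraries. The H3K27ac libraries numbered 1 stood apart from those numbered 2. Chromosome 16 took 1.13% (BL6) and 0.972% (NOD) of PETs in number 1 against 3.72% and 3.43% in number 2, and chromosome 19 took 0.853% and 0.565% against 2.97% and 2.6%. Both libraries numbered 1 lay below both numbered 2 at 17 of the 28 members tested in H3K27ac and above them at 3, 71.4% together against 59.5% of all genes tested. Double-positive thymocyte markers were present: their 15 genes summed to 1987 to 4151 CPM in the H3K27ac libraries with none at 0, and to 672 to 2019 in the 4 Smc1 libraries, lowest in NOD library 2, where 2 were at 0. The 8 B cell markers summed to 1103 to 2013 over the 8 replicated libraries, the 8 myeloid markers to 425 to 653, the 8 thymic epithelial markers to 238 to 394, the 8 markers of natural killer and effector T cells to 110 to 311 and the 6 erythroid markers to 27.2 to 86.3. Per 10 kb of gene window the median double-positive marker held 14.3 to 36.7 CPM in H3K27ac, above the median of all genes in each library. In Smc1 it was above in libraries 1 (11.4 against 9.37 in BL6, 19 against 9.94 in NOD). It was below in libraries 2 (6.54 against 9.23 in BL6, 4.69 against 8.23 in NOD). The median B cell marker held 12.8 to 14.5 in Smc1 and 16.8 to 21.6 in H3K27ac. For myeloid markers these were 11.3 to 17.7 and 9.32 to 20.2, and for thymic epithelial markers 11.2 to 13 and 8.87 to 19.4. In BL6 H3K27ac library 2 the double-positive median, 14.3, lay below the B cell (19.2), myeloid (20.2) and thymic epithelial (19.4) medians. It lay above them in the other H3K27ac libraries. In Smc1 it lay below them in every replicated library but NOD library 1. A HiChIP contact at a gene is not its expression, and the part of other cells in the values was not tested.

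Levels were also taken per 10 kb of window, to set genes of different length side by side. An anchor that only partly overlaps a window counts in full, so this scale can favour short windows. The window was 11.7 kb at Socs1 and 210 kb at Clec16a, and how far the order below rests on length was not tested. On this scale the median member held 12.2 CPM in Smc1, averaged over 4 libraries, against 9.61 for all genes. In H3K27ac the medians were 15.1 and 11.6. Levels above the median of all genes were seen for 20 of the 34 members in Smc1 and 22 in H3K27ac. In Smc1 the 6 members with the highest levels per 10 kb were Tnfaip3 (33.7, range over libraries 15.1 to 46.0), Socs1 (29.9, 18 to 44.6), Cd101 (29.5, 22.2 to 36.7), Il27 (25.4, 15.1 to 36.8), Tyk2 (24.0, 13.9 to 32.7) and Il10 (22, 11.5 to 31.8). The ranges of these 6 overlap, so their order is not separated by the spread of the libraries. In H3K27ac the 6 were Socs1 (76.0, 65.1 to 94.0), Dexi (49.6, 17.2 to 77.4), Clec16a (47.3, 28.4 to 65.1), Tnfaip3 (38.5, 16.1 to 58.2), Tyk2 (34.3, 24.2 to 43.8) and Il27 (26.2, 15 to 34.4). Socs1 stood at the 99.9th percentile of all genes in H3K27ac, and its lowest H3K27ac library lay above the highest Smc1 library. The plot of levels by library shows all members.

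**Figure D1:**
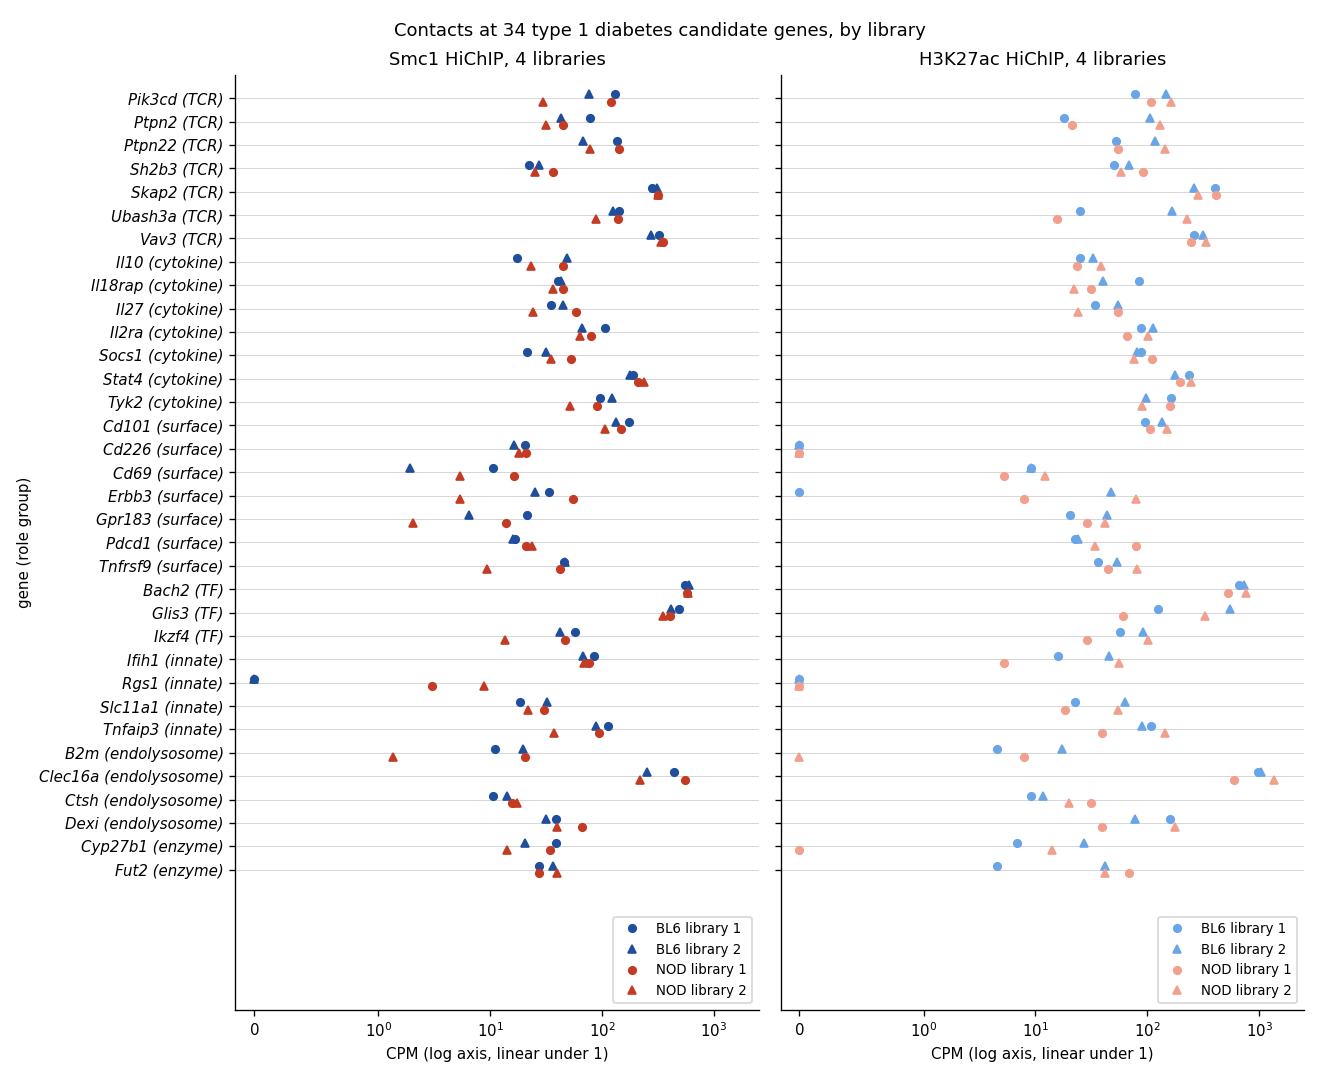
CPM (PETs per 1000000 PETs of the library, log axis, linear under 1) at each of the 34 genes, ordered by role group, in the Smc1 libraries on the left and the H3K27ac libraries on the right; circles are library 1 and triangles library 2, blue BL6 and red NOD. Bach2 stays between 546 and 602 in Smc1, Cd226 is at 0 in the 4 H3K27ac libraries, and at Glis3, Ubash3a and Ifih1 both H3K27ac libraries numbered 1 lie left of those numbered 2.

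Within a group the higher library exceeded the lower by a median ratio of 1.3 at members in BL6 Smc1, 1.49 in NOD Smc1, 1.63 in BL6 H3K27ac and 2.04 in NOD H3K27ac, counting genes with at least 20 PETs in the higher library and any in the lower. The same ratios over all genes were 1.3, 1.43, 1.73 and 1.95. The spread at the candidate genes was thus like that of the genome. The ratio reached 15.2-fold at B2m in NOD Smc1 and 14.3-fold at Ubash3a in NOD H3K27ac.

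The windows of 3 members lie side by side on chromosome 16 (GRCm38.p6): Dexi at chr16:10530207-10543054, Clec16a at chr16:10545309-10744878 and Socs1 at chr16:10783808-10785536. Clec16a encodes an endolysosomal protein of the mitophagy and autophagy machinery, and human diabetes variants lie in its introns. Dexi is a small neighbour transcribed away from it, whose window overlaps that of Clec16a, and Socs1 is an inducible inhibitor of cytokine receptor signalling through JAK kinases. Clec16a held 440 and 251 Smc1 CPM in BL6 and 549 and 216 in NOD, against 966 and 1041 (BL6) and 596 and 1364 (NOD) in H3K27ac. Every H3K27ac value lies above every Smc1 value, while the strains overlap under both antibodies.

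The contacts of Clec16a ran to one side. Of its PETs with an anchor outside the window only 3.52 to 9.78% in the 8 replicated libraries pointed upstream of its start, and the rest ran downstream, over Socs1 and beyond. Partners were counted in 25 kb bins and ranked by mean CPM over the 8 replicated libraries of both antibodies. The first at Clec16a was chr16:10850001-10875000, 105 kb past the gene and free of protein-coding genes. It received 117 and 83 PETs in BL6 Smc1, 99 and 42 in NOD Smc1, 36 and 169 in BL6 H3K27ac and 9 and 67 in NOD H3K27ac. Next came the Rmi2 bin, 80.1 kb away, with 77 and 36, 125 and 19, 72 and 63, and 33 and 51 PETs in the same order, and the bin that holds Socs1 and a protamine cluster, 30.1 kb away. The order of the means differed between antibodies: the gene-free bin held 45.3 CPM in Smc1 against 35.6 at Rmi2, and 95.1 in H3K27ac against 101. Single libraries did not follow the antibody. In H3K27ac the Rmi2 bin led in the libraries numbered 1 and the gene-free bin in those numbered 2. The Rmi2 bin also led in NOD Smc1 library 1. All 3 bins were listed in 8 of 8 tables, as were 11 of the 108 bins that Clec16a touched at all. In the F1 library the first bin took 75 PETs on either genome.

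Seen from Socs1, contacts with Clec16a made up 50.0 to 84.2% of the listed interactions. Interactions joining the Socs1 and Clec16a windows were 72.7 and 84.2% of those listed at Socs1 in BL6 H3K27ac, 61.5 and 71.4% in NOD H3K27ac, 50.0 and 58.3% in BL6 Smc1, 71.4 and 50.0% in NOD Smc1 and 60.0% in the F1 library on either genome. They were 2.45 to 9.64% of the interactions at Clec16a. Socs1 itself held 21.1 and 31.7 Smc1 CPM in BL6, 52.3 and 35.0 in NOD and 88.5, 81.4, 110 and 76.3 in H3K27ac (2 BL6 libraries, then 2 NOD). Its highest bin over both antibodies, chr16:10650001-10675000 inside Clec16a and 109 kb from Socs1, was listed in 8 of 8 tables, with 5, 4, 11 and 4 PETs in Smc1 and 4, 17, 11 and 11 in H3K27ac. It came first in H3K27ac (18.5 CPM) but ranked 5 in Smc1 (3.37), where the bin 134 kb away, also inside Clec16a, was first with 5.34. The values of Socs1 and Clec16a thus share interactions and are not independent of each other.

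Dexi held 39.0 and 31.7 Smc1 CPM in BL6 and 66.1 and 39.1 in NOD, and 159, 78.1, 39.4 and 177 in H3K27ac. In the F1 library it held 3 PETs on either genome, or 3.92 and 3.79 CPM, below both parents. Its highest bin was the gene-free bin at chr16:10850001-10875000 that also led at Clec16a, 307 kb from Dexi and listed in 8 of 8 tables. Dexi and Clec16a shared 3 to 12 interactions in each of the 8 replicated tables, 18.2 to 42.9% of those at Dexi. Per 10000 PETs of the chromosome Clec16a held 855 and 280 in BL6 H3K27ac and 613 and 398 in NOD, against 112, 71.8, 153 and 84.8 in Smc1.

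**Figure D2:**
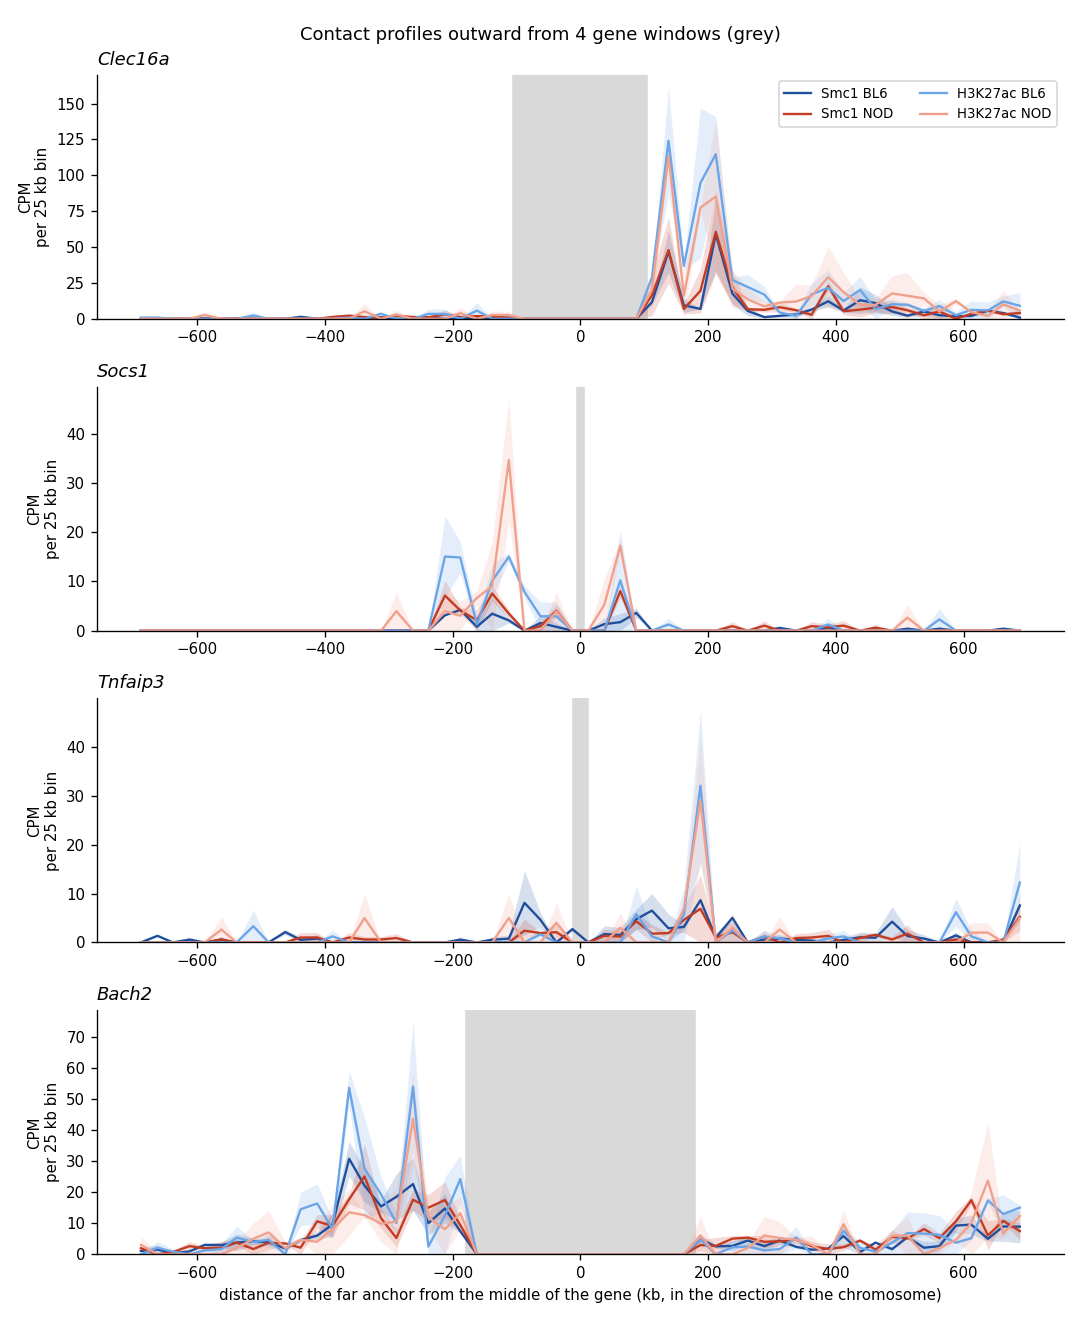
CPM in 25 kb bins against the distance of the far anchor from the middle of the gene (kb), for contacts leaving the windows of Clec16a, Socs1, Tnfaip3 and Bach2 (grey); lines are means of 2 libraries and bands their range, blue BL6 and red NOD, dark Smc1 and light H3K27ac. Clec16a contacts fall to the right of its window, Socs1 contacts mostly to the left over Clec16a, and Tnfaip3 has a narrow H3K27ac peak at 188 kb.

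Among innate sensing and restraint genes, Tnfaip3 (chr10:19000910-19015410) had the most defined partner. It encodes A20, a ubiquitin-editing enzyme that shuts off NF-kB signalling and is itself induced by NF-kB. It held 113 and 87.4 Smc1 CPM in BL6, 93.2 and 37.0 in NOD, and 107, 88.9, 39.4 and 143 in H3K27ac. The bin chr10:19175001-19200000, with no protein-coding gene and 160 kb upstream of the start, received 26 and 20 PETs in BL6 H3K27ac, 6 and 20 in NOD H3K27ac, 14 and 16 in BL6 Smc1 and 23 and 0 in NOD Smc1. As a mean over 4 libraries that was 32.9 CPM in H3K27ac and 6.83 in Smc1. The single interaction with the most PETs at Tnfaip3 joined this region in all 4 H3K27ac libraries, with 21, 9, 6 and 10 PETs. In 3 of them it spanned 171 kb from an anchor over the gene start, for example chr10:19013873-19016321 with chr10:19183957-19188644 in BL6 library 1. In BL6 library 2 it spanned 183 kb from the other end of the gene. The same pair of regions led in BL6 Smc1 library 1, with 10 PETs over 170 kb, and the F1 library had no PET in this bin.

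An anchor over an annotated start of Tnfaip3 was present in 10 of 10 tables, as was the case for Pik3cd and Stat4 and for no other of the 24 members with a promoter entry. At 3 members (Il18rap, Skap2 and Cyp27b1) no table had such an anchor. The 250 bases before the start are shown for Tnfaip3, Pik3cd and Stat4 and for Socs1 (8 of 10 tables). Anchors are wider than such a stretch, so an overlap does not place the contact within it. Ptpn22 and Ubash3a, with such anchors in 9 tables, and Tnfrsf9, with 8, are not shown. Where a gene had several entries, the one with anchors in the most tables was taken. That single stretch had anchors in 9 tables at Tnfaip3, 10 at Pik3cd and 7 at Stat4. The sequences are from RefSeq (GRCm38.p6), at chr10:19015411-19015660 (Tnfaip3, minus strand), chr4:149698709-149698958 (Pik3cd, minus), chr1:52007990-52008239 (Stat4, an internal start, plus) and chr16:10785537-10785786 (Socs1, minus). Capitals mark matches on either strand, which may overlap, to CCCTC (the core of the CTCF motif), GGGCGG (GC box), TGTGGT (Runx), CTTTGA (Tcf/Lef) and the NF-kB motif (GGG, any 2 bases, TTTCC).
Tnfaip3: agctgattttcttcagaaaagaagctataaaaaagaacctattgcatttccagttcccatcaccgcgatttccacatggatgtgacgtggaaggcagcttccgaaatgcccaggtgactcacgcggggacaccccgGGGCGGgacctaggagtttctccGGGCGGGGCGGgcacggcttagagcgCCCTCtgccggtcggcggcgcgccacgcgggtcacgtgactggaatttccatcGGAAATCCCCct
Pik3cd: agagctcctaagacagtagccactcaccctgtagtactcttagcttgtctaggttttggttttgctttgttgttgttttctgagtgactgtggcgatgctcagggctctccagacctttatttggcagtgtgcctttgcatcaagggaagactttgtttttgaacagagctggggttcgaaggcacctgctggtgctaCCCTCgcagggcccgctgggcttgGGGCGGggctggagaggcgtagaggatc
Stat4: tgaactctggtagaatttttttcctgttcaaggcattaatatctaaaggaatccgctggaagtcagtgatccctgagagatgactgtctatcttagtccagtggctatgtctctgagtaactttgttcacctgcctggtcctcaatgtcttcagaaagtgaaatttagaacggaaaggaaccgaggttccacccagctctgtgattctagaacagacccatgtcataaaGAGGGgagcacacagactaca
Socs1: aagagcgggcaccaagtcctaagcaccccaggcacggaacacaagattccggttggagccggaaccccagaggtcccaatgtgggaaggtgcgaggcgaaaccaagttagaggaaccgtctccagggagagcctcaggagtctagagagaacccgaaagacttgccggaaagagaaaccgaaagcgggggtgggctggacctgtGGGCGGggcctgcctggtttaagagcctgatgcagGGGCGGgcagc
Of 32851 promoter entries of this length, 60.5% held CCCTC, 32.7% GGGCGG, 14.0% TGTGGT, 13.8% CTTTGA and 1.41% the NF-kB motif. The Tnfaip3 stretch holds 1 CCCTC, 3 GGGCGG and 1 NF-kB match, the last at the end nearest the start. Pik3cd holds 1 CCCTC and 1 GGGCGG, the Stat4 stretch 1 CCCTC and the Socs1 stretch 2 GGGCGG. These matches describe letters and are not binding sites. Anchors overlapping the Tnfaip3 stretch carried 39 and 58 PETs in BL6 Smc1, 43 and 0 in NOD Smc1, and 47, 10, 13 and 23 in H3K27ac.

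The other genes of the innate group were sparser. Ifih1, a cytoplasmic sensor of double-stranded RNA, held 85.3 and 66.8 Smc1 CPM in BL6 and 77.0 and 68.7 in NOD, but 15.9, 45.7, 5.25 and 56.3 in H3K27ac, all below the Smc1 values. Its contacts were long, with a median span of 777 to 1150 kb in the 8 replicated libraries, and its highest bin held Tank, an adaptor of innate signalling 921 kb away, listed in 7 of 8 tables with 2 to 13 PETs where listed. Slc11a1, a phagosomal metal transporter of myeloid cells, held 18.4 to 32.4 in Smc1 and 18.4 to 63.1 in H3K27ac. Rgs1, a regulator of G protein signalling, was listed at 0 in both BL6 Smc1 libraries and in the 4 H3K27ac libraries, with 5 and 13 PETs in NOD Smc1 and 2 in either F1 table. It passed the filter on low counts in none of the tests.

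Among signalling genes of the T cell receptor, the long genes Vav3 and Skap2 were even between the Smc1 libraries. Vav3, a signalling protein that acts downstream of antigen receptors, held 320 and 276 Smc1 CPM in BL6 and 351 and 338 in NOD, and 261, 315, 247 and 331 in H3K27ac. In the 8 replicated libraries 75.9 to 92.0% of its outside PETs lay upstream, led by the Slc25a24 bin 165 kb away (50, 29, 48 and 41 Smc1 PETs; 9, 26, 4 and 9 in H3K27ac). Skap2, an adaptor of integrin signalling, held 277, 308, 313 and 317 in Smc1 and 399, 260, 412 and 281 in H3K27ac, where both libraries numbered 1 lay above both numbered 2. It reached farther than Vav3: its highest bin, chr6:51200001-51225000, lay 634 kb past the gene end, with 24, 18, 30 and 28 Smc1 PETs and 8, 6, 9 and 6 H3K27ac PETs. At Skap2 the PETs split evenly to both sides (41.6 to 53.7% upstream).

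Ptpn22, a phosphatase that dampens receptor signalling, held 135 and 67.2 Smc1 CPM in BL6 and 141 and 78.1 in NOD, so the technical replicates differed more than the strains. Pik3cd, the delta catalytic subunit of a lymphocyte phosphoinositide kinase, held 131 and 75.9 in BL6 and 121 and 29.6 in NOD. Ubash3a, a suppressor of receptor signalling, held 140, 124, 139 and 88.9 in Smc1, but 24.9 and 15.7 in the H3K27ac libraries numbered 1 against 166 and 225 in those numbered 2. As a share of chromosome 17, which is itself low in number 1, the same H3K27ac libraries gave 14.0 and 12.3 PETs per 10000 at Ubash3a against 33.4 and 46.9. Sh2b3, an adaptor that restrains cytokine signalling, was higher in H3K27ac (49.9, 68.9, 91.9 and 58.3) than in Smc1 (22.1, 27.5, 36.7 and 24.9) in every library. Ptpn2, a phosphatase of the JAK and STAT pathway on chromosome 18, held 77.4, 42.7, 44.5 and 31.7 in Smc1 and ranged from 18.1 to 129 in H3K27ac.

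The highest CPM of the cytokine genes and their transducers was at Stat4, the transcription factor of the interleukin 12 response, whose window covers 130 kb. Per 10 kb Stat4 averaged 15.6 CPM in Smc1 and 16.3 in H3K27ac, below Socs1, Il27, Tyk2 and Il10 under both antibodies. Stat4 held 189 and 178 Smc1 CPM in BL6 and 209 and 237 in NOD, and 234, 175, 197 and 243 in H3K27ac. Its highest bin over both antibodies lay 337 kb upstream and free of protein-coding genes, with 22, 31, 28 and 24 Smc1 PETs and 3, 10, 4 and 0 in H3K27ac. By mean it led in Smc1 (14.1 CPM) and ranked 5 in H3K27ac (6.4). The bin 637 kb away was first there with 10.0, from 13, 3, 0 and 4 PETs. Il2ra, the interleukin 2 receptor alpha chain and a human diabetes gene, held 106, 65.6, 80.0 and 64 in Smc1 and 88.5, 113, 65.6 and 102 in H3K27ac. Its first partner bin, 17.8 kb upstream, held Rbm17, with 42, 9, 16 and 0 Smc1 PETs and 29 on either genome in the F1. Between 71.6 and 84.0% of the outside PETs of Il2ra lay upstream. Tyk2, a JAK family kinase, held 95.3 and 122 in BL6 Smc1, 89.6 and 51.9 in NOD Smc1, and 163, 98, 160 and 90.4 in H3K27ac, with Dnmt1 in its 2 highest bins and the Icam1, Icam4 and Icam5 cluster in the third. In the F1 library Tyk2 held 31.4 and 35.4, below all 4 parental Smc1 libraries.

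The cytokine genes themselves had no partner bin listed in 8 of 8 tables, as was the case at most members, Stat4 and Tyk2 among them. Il10, an anti-inflammatory cytokine, held 17.4, 48.1, 44.5 and 22.9 Smc1 CPM and 24.9, 32.4, 23.6 and 38.2 in H3K27ac, and its 3 highest bins were each listed in 3 of 8 tables. Il27, a subunit of a cytokine that steers T cell fate, held 34.7, 45, 58.9 and 24.2 in Smc1 and 34, 54.8, 55.1 and 24.1 in H3K27ac. Its first bin, 30.0 kb away with Nupr1 and Sgf29, took 18, 21, 7 and 0 Smc1 PETs and 0, 5, 0 and 0 in H3K27ac, so its rank rests on Smc1. Il18rap, the accessory chain of the interleukin 18 receptor, held 40.0, 42.7, 45.1 and 36.4 in Smc1, even across strains and technical replicates, and 83.9, 39.9, 31.5 and 22.1 in H3K27ac.

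Among the transcription factors, Bach2, a repressor that preserves naive and regulatory T cell states, held 546 and 602 Smc1 CPM in BL6, 571 and 583 in NOD, and 585 and 573 in the F1 tables. Its H3K27ac values were 660, 729, 522 and 765. Bach2 also had the most recurrent partners, with 20 of its 128 partner bins listed in 8 of 8 tables, and its 5 bins with the highest means over both antibodies lay upstream of the gene and held no protein-coding gene. The first, chr4:32050001-32075000, lay 163 kb from the start and took 89 and 84 PETs in BL6 Smc1 and 30 and 38 in NOD Smc1. In H3K27ac it took 23 and 62 PETs in BL6 and 8 and 3 in NOD. These are raw counts from Smc1 libraries of 1899789 and 2620662 PETs in BL6 and 1663366 and 1484554 in NOD. A strain difference at single bins was not tested. Its mean was 30.6 CPM over the Smc1 and 32.7 over the H3K27ac libraries. The bin 63.4 kb away had a higher H3K27ac mean, 39.1, from 31 and 16 PETs in BL6 and 7 and 27 in NOD. It was the higher bin in BL6 library 1 and NOD library 2 and the lower in the others. Glis3, a zinc finger factor of pancreatic beta cells and thyroid, held 486, 409, 403 and 352 in Smc1 and was uneven in H3K27ac, at 125 and 551 in BL6 and 60.4 and 329 in NOD. Expressed per 10000 PETs of chromosome 19, Glis3 H3K27ac values were 146, 186, 107 and 127 and Smc1 values 167, 162, 148 and 212. Ikzf4, an Ikaros family factor, held 56.8, 41.6, 46.9 and 13.5 in Smc1.

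Among surface receptors, Cd226 differed most plainly between the antibodies. Cd226, an activating receptor of T and natural killer cells on chromosome 18, held 39 and 43 PETs in BL6 Smc1 and 35 and 27 in NOD Smc1, and 0 in each of the 4 H3K27ac libraries. The Smc1 values in CPM were 20.5, 16.4, 21.0 and 18.2, and the F1 tables gave 24.8 and 20.2. Tables list interactions only from 2 PETs upward and under a q-value limit, so a listed 0 is not an absence of contact. Chromosome 18 took 1.34 and 0.802% of PETs in the H3K27ac libraries numbered 1 and 3.35 and 3.13% in those numbered 2, and Cd226 was at 0 in both pairs. Cd101, an inhibitory receptor in a mouse Idd region, held 174, 133, 147 and 105 in Smc1 and 95.3, 135, 105 and 151 in H3K27ac. Its PETs ran upstream (81.0 to 96.1%), first to the bin of Cd2, 245 kb away and listed in 8 of 8 tables (27, 14, 19 and 19 Smc1 PETs; 6, 3, 3 and 12 in H3K27ac).

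Pdcd1, the inhibitory receptor PD-1, held 16.8, 16.0, 21.0 and 23.6 Smc1 CPM and 22.7, 24.1, 78.7 and 34.2 in H3K27ac. Tnfrsf9, a costimulatory receptor also known as 4-1BB, held 45.3 and 46.9 in BL6 Smc1 and 42.1 and 9.43 in NOD Smc1, and 36.3, 54.0, 44.6 and 80.4 in H3K27ac. Gpr183, an oxysterol receptor that guides cell positioning, held 2.02 to 21.1 in Smc1 and 20.4 to 44.0 in H3K27ac. Cd69, an early activation marker, and Erbb3, an epidermal growth factor receptor family member, stayed at or under 16.2 and 54.7 in Smc1 and at or under 12.1 and 78.4 in H3K27ac. Erbb3 was at 0 in BL6 H3K27ac library 1. The remaining genes were sparse as well: B2m, the light chain of class I molecules, held 1.35 to 20.4 in Smc1 and 0 to 17.4 in H3K27ac. Ctsh, a lysosomal protease, held 10.5 to 17.5 and 9.07 to 31.5. Fut2, a fucosyltransferase, held 27.1 to 39.7 in Smc1 and 4.54, 41.5, 68.2 and 42.2 in H3K27ac, and Cyp27b1, the enzyme that activates vitamin D, 14.1 to 38.4 in Smc1 and 0 to 27.4 in H3K27ac.

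The first comparison asks whether contacts at these genes differ between the diabetes-prone NOD strain and BL6. In Smc1, 33 of the 34 members could be tested and none passed an adjusted p of 0.05 in edgeR's quasi-likelihood test with Benjamini-Hochberg adjustment over 18053 genes, where 0.188% of all genes passed. Before adjustment 0 members were under 0.05, and DESeq2 also called 0. The members' median log2 fold change (NOD over BL6) was 0.04 against 0.01 for all genes, with 19 above 0 and 14 below. The 2 libraries of one strain lay wholly on one side of the other strain's at 10 members, 30.3%, against 33.3% of all genes. NOD was the higher at Vav3, Socs1, Dexi, Stat4, Ctsh, Skap2 and Pdcd1, and the lower at Tnfrsf9, Tyk2 and Glis3.

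The 4 members with the smallest p were Tyk2, Socs1, Tnfaip3 and Dexi. Tyk2 averaged 109 ± 19.0 in BL6 and 70.7 ± 26.7 in NOD (SD over 2 technical replicates of 1 biological replicate), a log2 fold change of -0.60 with a standard error of 0.33. Socs1 averaged 26.4 ± 7.51 and 43.7 ± 12.2 (SD as before), or 0.75 with a standard error of 0.46. For Tnfaip3 the log2 value was -0.60 (standard error 0.39) with overlapping strains, and for Dexi 0.60 (0.41), where the lower NOD library at 39.1 stood just above the higher BL6 library at 39.0. All 4 had an adjusted p of 1. The other members with high Smc1 levels per length gave log2 values of -0.25 (standard error 0.27) at Cd101, 0.04 (0.56) at Il10 and 0.07 (0.47) at Il27. At Tnfrsf9 it was -0.83 (0.58), carried by NOD library 2 alone. Without NOD library 1, which leaves library 2 as the lone NOD library with its spread taken from the technical BL6 pair, Tnfrsf9 fell by 2.16 on the log2 scale (adjusted p = 0.0238) and Pik3cd by 1.67 (adjusted p = 0.0113), while 805 genes passed.

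In H3K27ac, where the replicates are biological, 28 members could be tested. B2m, Cd226, Cd69, Ctsh, Cyp27b1 and Rgs1 did not pass the filter on low counts. No member passed, and neither did any of the 13884 genes tested (0% of all genes) in edgeR; before adjustment 0 members were under 0.05, and by DESeq2 0 passed. The median log2 fold change was 0.05 against -0.01 for all genes, with 15 above 0 and 13 below. The strains did not overlap at 3 members, 10.7% against 21.4% of all genes. These were Fut2 and Pdcd1, higher in NOD, and Il18rap, lower.

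Il18rap averaged 61.9 ± 31.1 CPM in BL6 and 26.8 ± 6.64 in NOD (SD, n = 2), a log2 fold change of -1.22 with a standard error of 0.83. Pdcd1 averaged 23.4 ± 0.997 and 56.4 ± 31.5, or 1.24 with a standard error of 0.87, and its higher NOD value, 78.7, came from library 1. Fut2 gave 1.16 (1.12) and Glis3 -0.87 (0.98), with BL6 library 1 at 4.54 for Fut2. The genes with the highest H3K27ac levels per length had strain differences near 0: Tyk2 -0.08 (0.64), Clec16a -0.09 (0.55), Socs1 0.11 (0.63), Dexi -0.18 (0.84), Il27 -0.20 (0.86) and Tnfaip3 -0.15 (0.77). Standard errors of 0.55 to 0.86 leave room for 2-fold differences in either direction, so these values do not show that the strains are alike. The plot of fold changes places each estimate with its standard error.

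**Figure D3:**
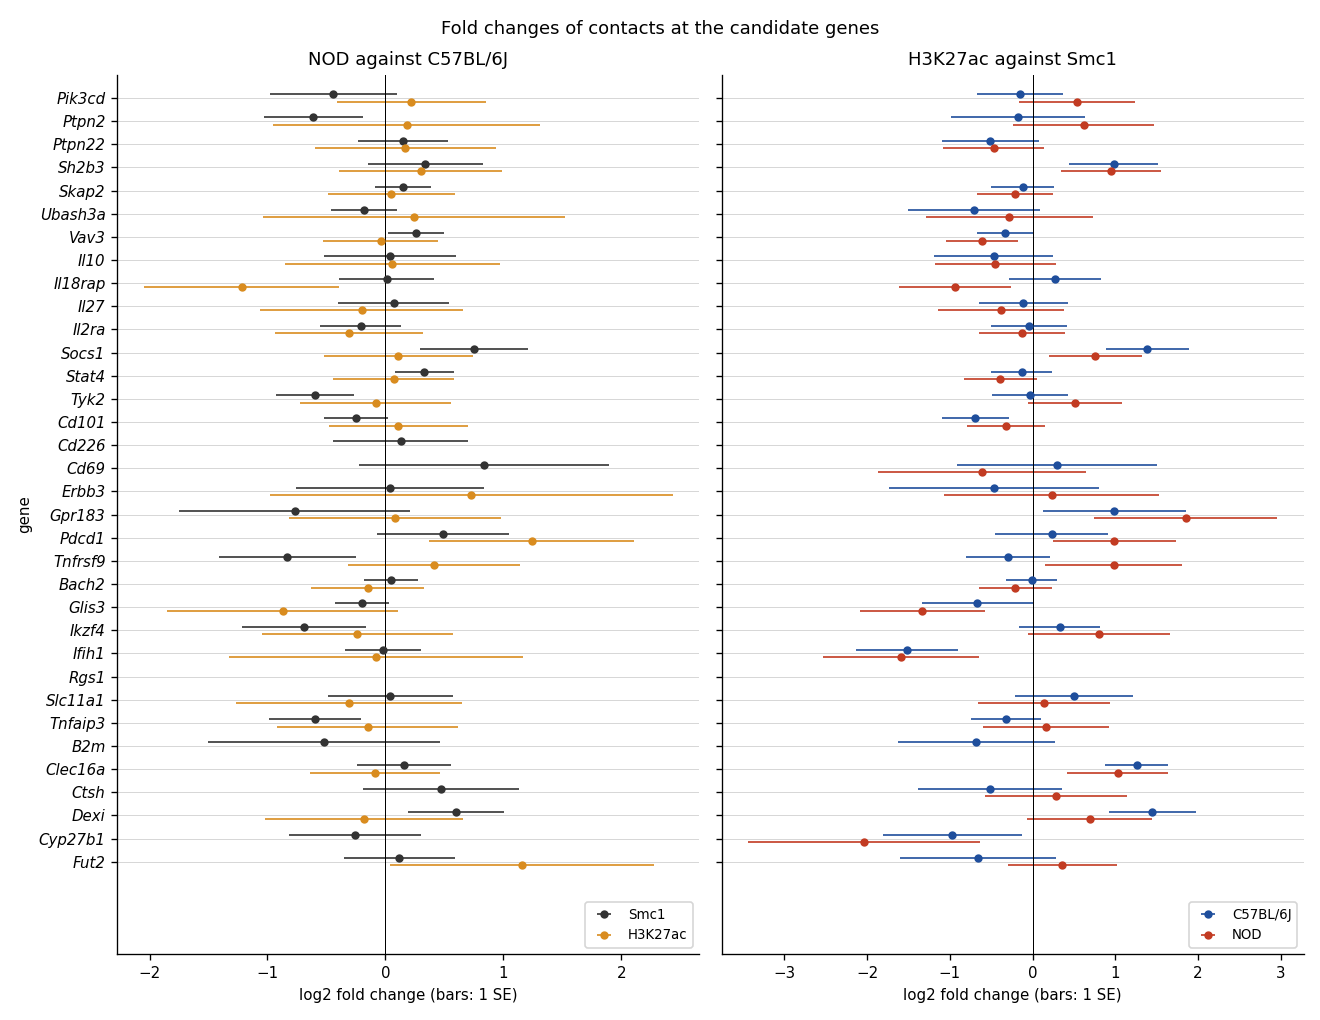
Log2 fold change with 1 standard error as bar for each tested gene, NOD against BL6 on the left (black Smc1, orange H3K27ac) and H3K27ac against Smc1 on the right (blue BL6, red NOD). No estimate passed an adjusted p of 0.05. Clec16a, Socs1 and Dexi lie right of 0 for the antibody comparison in both strains, but Socs1 and Dexi share interactions with Clec16a. Ifih1 lies left, and Cd226, at 0 in H3K27ac, is not drawn there.

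The second comparison sets H3K27ac against Smc1 within a strain. The 2 antibodies were applied to different libraries whose replicates are of different kinds, so antibody and library preparation cannot be told apart. In BL6, 33 members were tested and none passed the adjusted threshold in edgeR, nor did any other gene (0% of 17610). Before adjustment 5 members were under 0.05, and so were 1189 of all 17610 genes, while 0 members passed in DESeq2. Cd226, at 0 in every H3K27ac library and tested only through Smc1, was among the 5. In CPM, which uses library totals without TMM factors, the antibodies did not overlap at 8 members, 24.2% against 44.8% of all genes. H3K27ac was higher at Sh2b3, Clec16a, Socs1, Dexi, Bach2 and Pdcd1 and lower at Ifih1 and Cd226. With the TMM factors of the edgeR fit the log2 difference was -0.01 (standard error 0.31) at Bach2 and 0.23 (0.68) at Pdcd1. At Sh2b3, Clec16a, Socs1 and Dexi it was 0.98 to 1.45, and at Ifih1 -1.52. In NOD, 32 members were tested and again none passed (0% of 16627 genes), and DESeq2 called 0. The 1 member with p under 0.05 before adjustment was again Cd226, and 1300 of all 16627 genes were under 0.05. In NOD 15 members did not overlap in CPM, 46.9% against 44.4%, with Clec16a, Socs1, Sh2b3, Pdcd1, Tnfrsf9, Tyk2, Gpr183, Ctsh and Fut2 higher in H3K27ac. Vav3, Ifih1, Cd226, Il18rap, Glis3 and Cyp27b1 were lower.

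The median log2 difference (H3K27ac over Smc1) was -0.15 over members and -0.06 over all genes in BL6, with 10 members above 0 and 23 below, and 0.01 and -0.05 in NOD, with 16 on either side. It depends on the scaling. With library totals in place of TMM factors the medians were 0.13 and 0.22 in BL6 and 0.36 and 0.30 in NOD.

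Clec16a gave a log2 difference of 1.26 with a standard error of 0.38 in BL6 (adjusted p = 0.56, edgeR) and 1.03 (0.61) in NOD (adjusted p = 0.82). Socs1 gave 1.39 (0.50) and Dexi 1.45 (0.53) in BL6, with adjusted p-values of 0.65 and 0.67 (edgeR). Both genes share interactions with Clec16a, so these estimates are not independent of its own. In NOD, Ifih1 gave -1.59 (0.94) and Glis3 -1.33 (0.76), with adjusted p-values of 0.82 and 0.81. At Cd226 the H3K27ac libraries were all at 0, so no fold is given, and the adjusted p was 0.44 in either strain. The number of members called depended on single H3K27ac libraries. Leaving one out leaves a lone H3K27ac library that is assumed to vary like the Smc1 pair, whose spread is technical, so these calls are no replicated result. Without BL6 H3K27ac library 1, Clec16a (log2 1.32, adjusted p = 0.00582, edgeR) and Cd226 were among 1236 genes called. Without BL6 H3K27ac library 2, 12 members were among 5161 genes called: Clec16a, Socs1 and Dexi higher, and Cd101, Cyp27b1, Fut2, Glis3, Ifih1, Ptpn2 and Ubash3a lower in H3K27ac, besides Cd226 and Erbb3. Cd226 in both settings and Erbb3 in the second were at 0 in the remaining H3K27ac library and were tested only through Smc1, so their calls say nothing further. Without NOD H3K27ac library 2, Glis3, Ifih1 and Ubash3a passed, all lower, among 1921 genes.

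Whether the strain difference itself differed between antibodies was tested as an interaction over the 8 libraries. None of the 33 members tested passed in edgeR, 0 were under 0.05 before adjustment, DESeq2 called 0 members and 0% of all 18100 genes passed. The median interaction over members was -0.05 against -0.06 for all genes. The 2 antibody comparisons and the 2 strain comparisons share libraries with it.

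The F1 library shows what the genes look like when both genomes sit in one nucleus, without replication and without allele-specific counts, since each table holds the whole library on 1 genome. Of 24 members with at least 20 PETs on the higher genome, 1 differed by over 1.5-fold between the tables, and over all genes the share was 4.25%. That member was Tnfrsf9, with 46 PETs when mapped to BL6 and 30 when mapped to NOD, a ratio of 0.63 (NOD over BL6, in CPM). Counting intervals at 95% (exact Poisson, counting error only) reached from 44 to 80.2 CPM for the first count and from 25.6 to 54.1 for the second, so they overlap. The other ratios lay between 0.752 and 1.36, the ends being Il27 (27 and 21 PETs) and Ubash3a (73 and 103), and the median was 0.966.

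Against the parents, the F1 value on the BL6 genome lay below both BL6 Smc1 libraries at 13 members, between them at 8 and above both at 13. On the NOD genome it lay below both NOD libraries at 11 members, between them at 13 and above at 10. Over all genes tested the shares were 38.5, 25.2 and 36.3% for BL6 and 33.9, 32.3 and 33.8% for NOD, so the candidate genes were placed much as the genome is. Below both parents on both genomes were Ptpn22, Ifih1, Tyk2, Sh2b3, Dexi, Ctsh and Pdcd1. Above both parents on both genomes were Il2ra, Slc11a1, Socs1, Gpr183, Il18rap, Cd69 and Fut2. No share of all genes is given for such joint placement, so these lists are not set against the genome. Some entries rest on few PETs: 3 in either F1 table at Dexi, 8 at Ctsh and 10 at Pdcd1. The 95% counting interval of Socs1 in the NOD-mapped table, 38.2 to 71.7 CPM, holds the NOD Smc1 mean of 43.7. At Fut2 the intervals began at 49.6 and 48.0, above the point value of every parental Smc1 library. Both F1 tables come from the same library, which was shallower than the parental Smc1 libraries (765188 and 791859 PETs). Fut2 was also picked after viewing all members, so a difference between F1 and parents was not tested. For Fut2 the F1 values were 66.7 and 64.4 against 27.4, 36.3, 27.1 and 39.7 in the parental Smc1 libraries.

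**Figure D4:**
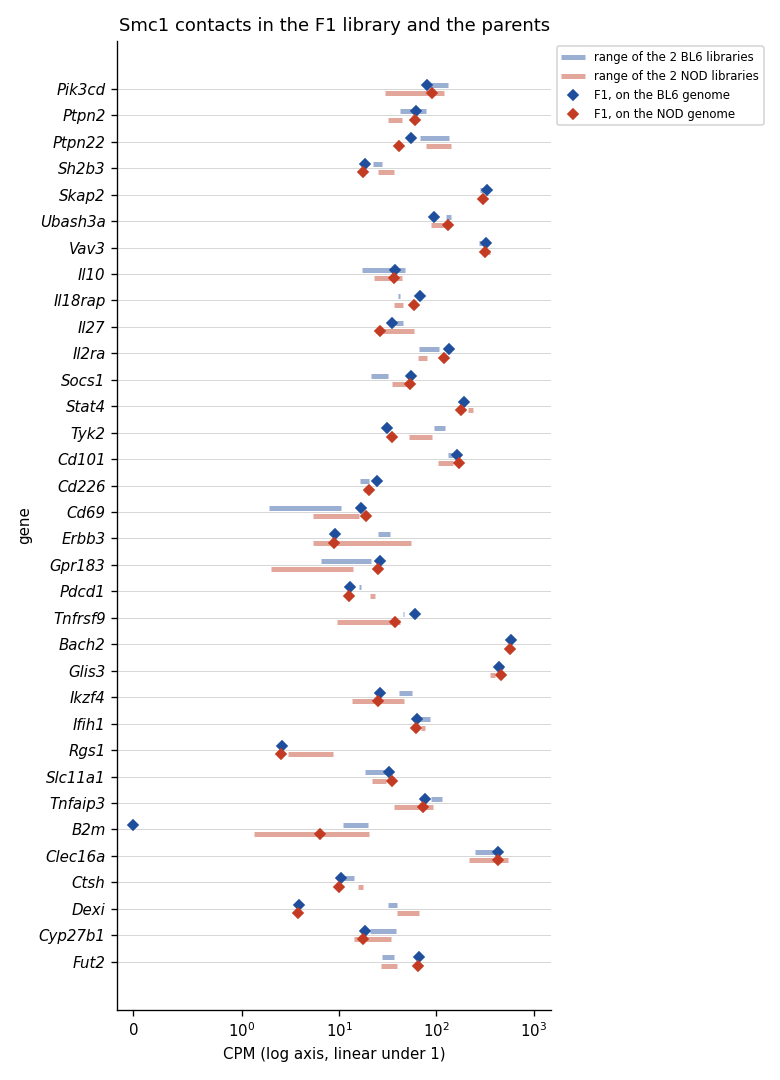
Smc1 CPM (log axis, linear under 1) at each gene; diamonds are the F1 library mapped to BL6 (blue) or NOD (red) and bars the range of the 2 libraries of the parent strain of that genome. Dexi and Tyk2 lie left of both bars and Fut2 and Il2ra right of both, while the diamonds of Bach2, at 585 and 573, sit within narrow bars.

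A further list of 57 diabetes candidates that are not members was read in the same way. In Smc1 51 of them were tested, 0 rose and 0 fell in NOD by edgeR, and their median log2 fold change was 0.06, with 26 above 0 and 25 below. In H3K27ac 44 were tested, 0 rose and 0 fell, and the median was 0.19, with 25 above 0 and 19 below. In the antibody comparisons 51 were tested in BL6 and 49 in NOD, again with 0 called in either direction and medians of -0.05 and 0.18.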

How the data were processed

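HiChIP interactions of sorted CD4+ CD8+ mouse thymocytes were analysed from 10 tables of 9 libraries. Per the file headers each row is an interaction between 2 anchors with a count of PETs and with p-values and q-values; the authors deposited rows with at least 2 PETs and a q-value of at most 0.05, with spans up to 2 Mb. HiC-Pro, Juicer 1.7.6, MACS and the build GRCm38 are named without roles, per the submitters' processing notes. The interaction caller is not given in the sources used here. Tables mapped on the NOD genome hold coordinates shifted to the BL6 reference, per the names the authors gave the tables, so spans were computed from the shifted anchor midpoints. Because only interactions above a minimum are listed, a value of 0 is a listed 0.

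Counts were summed per gene (RefSeq GRCm38.p6) over interactions of at least 10 kb touching the gene body with 5 kb on each side, so one interaction can count for several genes. Partners are 25 kb bins of the far anchor's midpoint. Strains, antibodies and their interaction were compared with edgeR 4.0.16 (quasi-likelihood, TMM, default expression filter by group, Benjamini-Hochberg over all genes tested, threshold 0.05) in R 4.3.3, tested on simulated data. DESeq2 1.42.0 was an alternative, with other filters, windows, scalings, a replicate block and the removal of each library; offsets from chromosome totals were added after seeing the data. Tables were read with Python 3.11.15 and pandas 2.3.3. Intervals cover counting error only. The F1 library entered no test.

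Named in full were the 6 genes with the highest level per 10 kb for each antibody, the 4 with the smallest p in each comparison and any gene whose F1 tables differed over 1.5-fold. For promoters, 24 members had a RefSeq entry. Il10, Ptpn2, Ikzf4, Erbb3, Cd226, Il27, Cd69, Ctsh, Rgs1 and Fut2 were the others. The members and all lists were chosen with earlier results of these data known.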

Additional observations from a re-analysis of the deposited data

Results flagged for a closer look

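Interactions spanning under 10 kb were left out of every comparison and still carried PETs at the candidate genes in each table. They held 403 and 623 PETs in BL6 Smc1, 231 and 262 in NOD Smc1, 121 (BL6 genome) and 115 (NOD genome) in the F1 tables, 82 and 212 in BL6 H3K27ac and 27 and 117 in NOD H3K27ac. Glis3 held the most, with 467 PETs of 34 interactions in 9 tables, followed by Bach2 with 341 PETs, Clec16a with 224, Pik3cd with 129 and Tyk2 with 113. No control sample gives a background for these short spans.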

How the results depend on the processing

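No member was called in 52 of 52 settings that kept all libraries. Leaving out 1 library gave 0 to 2 members in the Smc1 strain comparison, 0 to 0 in the H3K27ac one, 0 to 12 in the antibody comparison in BL6, 0 to 3 in NOD and 0 to 0 for the interaction. Over all genes the Smc1 strain comparison called 34, and 15 with at least 3 PETs per interaction, 5 with q-values up to 0.01, 17 without flanks, 17 with gene ends only and 4 to 805 with 1 library left out. The H3K27ac strain comparison called 0, and 17 with DESeq2 and 0 to 26 with 1 library left out. The antibody comparisons called 0, and with DESeq2 204 (BL6) and 340 (NOD), with the number of listed interactions 28 (BL6), and with 1 library left out 0 to 5161 (BL6) and 0 to 1921 (NOD). With the replicate block 58 genes passed in Smc1 and 42 in H3K27ac, and 0 members in either; same-numbered libraries deviated together with a correlation of 0.222 in Smc1 and 0.525 in H3K27ac over 18100 genes, and 2 numbers per antibody are too few to show a pairing. With 1 library left out, its group is a lone library assumed to vary like the rest of the fit. The cause of these moves was not tested.

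Of 359 log2 fold changes recomputed for 26 pairs of gene and comparison, 322 kept direction and call, 9 newly passed and 28 changed sign; in 23 further settings the gene was no longer tested. In Smc1 Il10 turned to -0.076 (at least 3 PETs), -0.497 (no flank) and -0.094 (chromosome totals), and ranged from -0.513 to 0.982 with 1 library left out. Il27 turned to -0.019, -0.352 (q-value up to 0.01), -1.175, -0.002 (replicate block) and -0.081, and ranged from -0.598 to 0.504. In H3K27ac Clec16a turned to 0.011 (at least 3 PETs), 0.029 (q-value) and 0.204 (gene ends), Dexi to 0.401 and Tyk2 to 0.201 (q-value), and Tnfaip3 to 0.210 (listed interactions). With 1 library left out the ranges were -0.741 to 0.387 for Clec16a, -1.558 to 0.534 for Dexi, -2.488 to 0.606 for Glis3, -0.945 to 0.305 for Il27, -0.207 to 0.389 for Socs1, -1.293 to 0.492 for Tnfaip3 and -0.578 to 0.330 for Tyk2. In the F1, 1 member exceeded 1.5-fold under each alternative, but with q-values up to 0.01 it was Ubash3a, and Tnfrsf9 had 22 and 17 PETs. Low depth limits these values: in the shallowest H3K27ac library 18 members held under 20 PETs.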
